A study of Mus musculus with 2 samples.

Results

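The genes of the activin system were read in osteoblasts, the bone-forming cells, after a rise in extracellular phosphate. The set holds 9 genes, grouped by name and chosen with earlier results of these data known. They are the inhibin beta subunits Inhba and Inhbb, the follistatins Fst, Fstl1 and Fstl3, and the activin receptors Acvr1, Acvr1b, Acvr2a and Acvr2b. They were taken from 18193 genes named on the array. Of the probe sets (groups of short probes that together report 1 transcript), 19 named only 1 of these genes, out of 34945 that named a single gene. A further probe set named Acvr2a together with a second gene and was left out.

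Primary osteoblasts came from the calvariae of C57BL/6 mice aged 5 days and were kept overnight without serum. The phosphate culture then spent 6 h in serum-free medium at a final 4 mM phosphate, added as sodium phosphate at pH 7.2, so that sodium was added too. The control culture spent the same time in unmodified serum-free medium, which holds 1 mM phosphate. Each condition was measured on 1 array, so no test between conditions was possible, no p-value is given, and every difference describes these 2 arrays.

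Activins are dimers of inhibin beta subunits, and activin A is the dimer of the subunit encoded by Inhba. An activin binds a type II receptor kinase, which recruits and phosphorylates a type I receptor kinase, and this in turn phosphorylates SMAD2 and SMAD3, which act on transcription with SMAD4. Follistatin binds activin outside the cell and keeps it from its receptors. In bone, activin A is stored in the matrix, is made by osteoblasts, and is known to act on osteoclast formation and on mineralisation in culture.

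The ligand subunit genes Inhba and Inhbb differ in the sequence just upstream of their start sites. The 250 bases before the start site, taken from RefSeq on GRCm38.p6, are shown for this pair because Inhba had a much higher ratio than Inhbb. The Inhba window is chr13:16011601-16011850 on the plus strand and the Inhbb window chr1:119422249-119422498 on the minus strand. Both read 5′ to 3′, and capitals mark a match to the TATA box letters TATAAA.
Inhba: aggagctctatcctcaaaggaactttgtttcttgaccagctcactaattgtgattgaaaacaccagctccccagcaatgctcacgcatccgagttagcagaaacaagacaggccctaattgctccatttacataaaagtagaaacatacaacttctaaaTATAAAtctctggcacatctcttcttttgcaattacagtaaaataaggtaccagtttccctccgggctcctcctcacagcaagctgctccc
Inhbb: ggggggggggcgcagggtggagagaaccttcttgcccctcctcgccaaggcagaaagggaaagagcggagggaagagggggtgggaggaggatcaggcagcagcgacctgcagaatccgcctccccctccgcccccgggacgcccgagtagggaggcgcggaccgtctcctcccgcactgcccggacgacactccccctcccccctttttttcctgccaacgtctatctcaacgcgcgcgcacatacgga

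The upstream window of Inhba held 43.2% G and C with 3 CpG dinucleotides, and that of Inhbb 68% with 21. Promoter sequences were found for 8 of the 9 genes, all but Fst. The other 6 windows held 68% to 85.6% G and C, so Inhba was the only 1 of the 8 below 68%. Over all 32851 windows of this length in the table the median was 52.4%, and 19.0% of them had a lower G and C content than Inhba. The TATAAA letters were found, on either strand, in 12.4% of all windows and in 2 of these 8, in Inhba with its first base 91 bases before the start site and in Fstl3 29 bases before it. None of the 8 windows held, on either strand, the cAMP response element TGACGTCA (in 1.55% of all windows), its core TGACG (17.8%; every full element contains it), the AP-1 letters TGANTCA (6.75%), the SMAD box GTCTAGAC (0.167%) or the CAGA element AGCCAGACA (0.301%). These matches describe letters in the windows and were not tested against the array values.

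Signals are linear intensity values, scaled by the depositors so that both arrays have the same trimmed mean. A floor was set at 21.5, the median of all signals on both arrays, and a probe set was called measured when at least 1 array lay above it. Of the 19 probe sets, 14 were above the floor on both arrays, 1 on the phosphate array only, and 4 on neither. Every one of the 9 genes had a measured probe set. Signals of different probe sets depend on the probes as well as the transcript, so a difference between the signals of 2 genes is not a difference in RNA level.

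**Figure D1:**
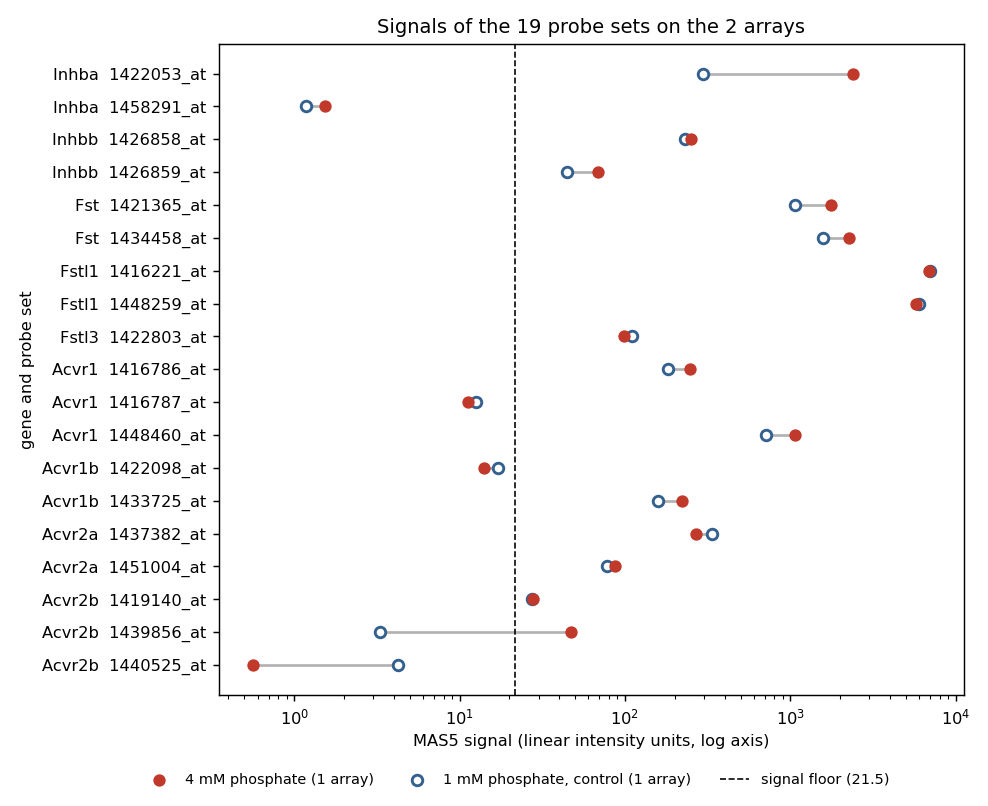
MAS5 signals (linear units on a log axis) of the 19 probe sets that name 1 of the 9 genes, with filled points for the 4 mM phosphate array, open points for the control array and a dashed line at the floor of 21.5. Among probe sets with both signals above that line, the first one of Inhba shows the widest gap between its points (2378 in phosphate and 294 in control).

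The gene for the activin A subunit stood 8.08-fold higher in 4 mM phosphate. Inhba had a signal of 2378 on the phosphate array and 294 on the control array, a log2 ratio of 3.01. Only 10 of 12276 measured genes had a higher ratio and 12265 had a lower one. The only available measure of technical error was how far log2 ratios scattered when a gene had several probe sets. Its standard deviation (SD) was 0.26 at this signal level, taken from 2601 probe sets of 1170 genes. It holds no difference between cultures. The ratio rests on 1 probe set, designed on the RefSeq transcript, because the second Inhba probe set, designed on an expressed sequence tag, gave 1.54 in phosphate and 1.18 in control, far below the floor, and shows no direction.

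The other ligand subunit gene gave no such difference. Inhbb, which encodes the subunit of activin B, had signals of 252 in phosphate and 231 in control on its brighter probe set, a log2 ratio of 0.12 that lay within 1 technical SD of 0. Its dimmer probe set read 69.0 in phosphate and 44.7 in control, a log2 ratio of 0.62 against a technical SD of 0.42 at that level. The 2 Inhbb probe sets thus pointed the same way, and neither reached 2-fold.

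Follistatin, the secreted antagonist of activin, was moderately higher on both of its probe sets. The brighter Fst probe set read 2276 in phosphate and 1568 in control, which is 1.45-fold. The other read 1756 in phosphate and 1074 in control, which is 1.63-fold. The 2 log2 ratios, 0.54 and 0.71, differed from each other by about the technical SD of 0.16 at that level and were both more than 3 times that SD above 0. That SD covers neither a shift common to all genes of an array nor a difference between cultures. The gene lay below 2-fold, and 1018 measured genes had a higher ratio.

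The related follistatin-like genes showed little difference between the arrays. Fstl1, a secreted glycoprotein with a follistatin domain, read 6939 in phosphate and 6975 in control, and 5720 in phosphate and 6000 in control on its second probe set. Its log2 ratios were −0.01 and −0.07, both inside the technical SD of 0.16. The 2 Fstl1 probe sets were designed on the same accession, so they are no independent views of the transcript. Fstl3, which binds and neutralises activin as follistatin does, read 98.8 in phosphate and 110.2 in control on its only probe set, a log2 ratio of −0.16 against a technical SD of 0.42.

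The 2 type I receptor genes lay somewhat higher in phosphate. Acvr1 encodes ALK2, a receptor that is best known for BMP signals through SMAD1 and SMAD5. Its brightest probe set read 1063 in phosphate and 717 in control (1.48-fold), and a second read 248 in phosphate and 182 in control (1.36-fold). The last Acvr1 probe set was below the floor at 11.2 in phosphate and 12.5 in control. Acvr1b encodes ALK4, the main type I receptor for activin. It read 223 in phosphate and 159 in control (log2 ratio 0.49, technical SD 0.26), while its second probe set was below the floor at 14.0 in phosphate and 17.1 in control. All 3 Acvr1 probe sets were designed on 1 accession, and the 2 measured ones gave log2 ratios of 0.57 and 0.44.

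The type II receptor genes, whose products bind activin first, had no agreed direction. Acvr2a read 267 in phosphate and 336 in control on its brightest probe set, a log2 ratio of −0.33, and 86.6 in phosphate and 77.8 in control on a dimmer one, a log2 ratio of 0.15. Acvr2b was near or below the floor on all 3 of its probe sets. The one above the floor on both arrays read 27.7 in phosphate and 27.4 in control. A second Acvr2b probe set read 47.0 in phosphate and 3.32 in control, which makes it at least 2.19-fold higher against the floor, and the last read 0.560 in phosphate and 4.23 in control, below the floor on both. The 3 Acvr2b probe sets therefore do not settle whether this gene differed.

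**Figure D2:**
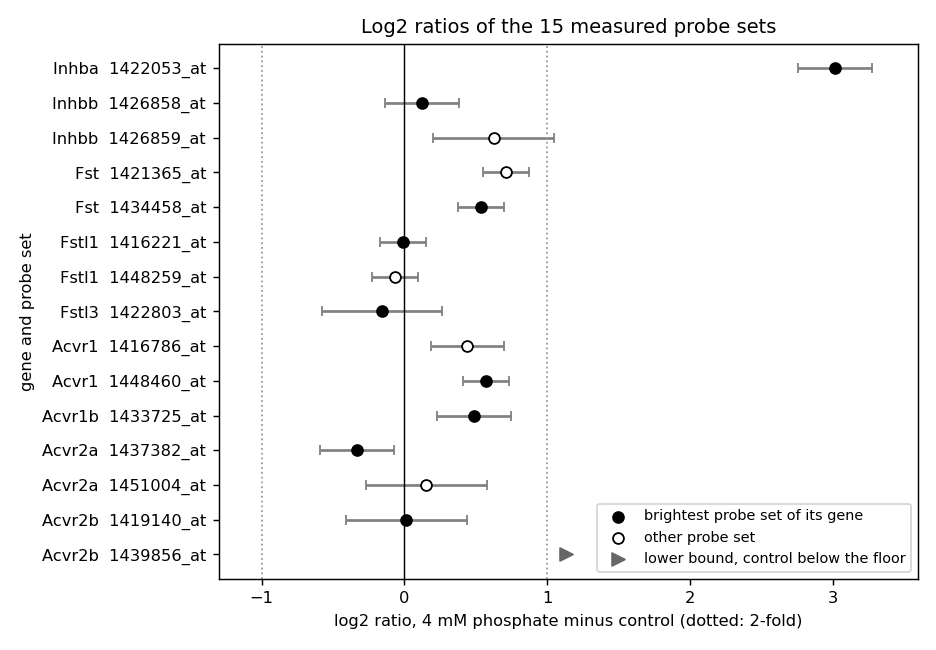
Log2 ratios (4 mM phosphate minus control) of the 15 measured probe sets, with bars of 1 technical SD, as scattered among a gene's own probe sets at like signal, and dotted lines at 2-fold. Filled points are the brightest probe set of each gene, open points the others, and the arrowhead is the lower bound for Acvr2b; Inhba at 3.01 lies apart from the rest.

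With each gene read from its brightest probe set, 1 of 9 was at least 2-fold higher in phosphate, where 2.27% of all 12276 measured genes were. None of the 9 was at least 2-fold lower, against 2.92% of all measured genes. The remaining 8 had log2 ratios between −0.33 and 0.57 and lay within 1.5-fold, and 19.3% of all measured genes lay outside 1.5-fold. The median over the 9 genes was 0.12, beside −0.06 over all measured genes. Counted by probe set, 2 of 15 were at least 2-fold higher, against 2.62% of measured probe sets naming 1 gene. The 2 were the measured one of Inhba and the bound for Acvr2b. The latter counted as measured through its phosphate signal alone, so its floored ratio could only be positive. Among the 14 whose 2 signals each exceeded the floor, only 1 was past 2-fold, that of Inhba.

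**Figure D3:**
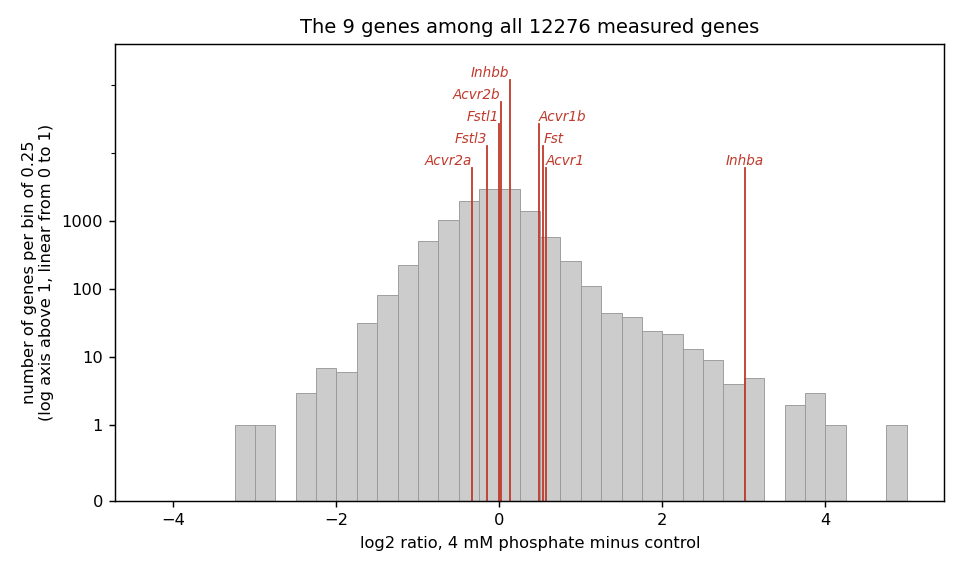
Number of genes per bin of 0.25 in log2 ratio (4 mM phosphate minus control) for the 12276 measured genes, on an axis that is logarithmic above 1, with vertical lines at the 9 genes. Inhba lies in the far right tail and the other 8 lie between −0.33 and 0.57.

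The scaling of the arrays bears on the smaller differences. The 24 probe sets for poly-A spikes, bacterial RNAs added before labelling, had a median log2 ratio (phosphate minus control) of 0.46. The 18 probe sets for hybridisation spikes, controls added only at hybridisation, were also higher on the phosphate array, with a median of 0.23 (0.14 to 0.47). The source of these offsets was not tested. On the scale that makes the poly-A spikes equal, the median of all measured genes became −0.51. Inhba stood at 2.55 there, which is 3.06 above that median, where it was 3.07 without the spikes. The spike scale divides every phosphate signal by the same factor, so distances from the median change only through signals near the floor. They therefore say nothing about how stable a difference is, and neither do the list medians set beside −0.51 below. On that scale Fst stood at 0.07, Acvr1 at 0.11 and Acvr1b at 0.02, and Inhbb turned to −0.34. Relative to the median of all genes on that scale they were 0.58, 0.61, 0.53 and 0.17 higher. Both arrays started from 100 ng of RNA, so neither scaling is known to give the change per cell.

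Restricted to genes whose 2 signals both exceeded the floor, the 5 whose pair of signals lay nearest to that of Inhba were Mt2, Fos, Sphk1, Socs3 and Sgk1. Nearness was the Euclidean distance of the 2 log2 signals, over 2 arrays and 11183 other genes. Mt2, a metallothionein gene, was nearest at a distance of 0.33, with 2517 in phosphate and 368 in control (6.85-fold). Fos, an AP-1 transcription factor gene, had 1829 in phosphate and 303 in control (6.04-fold). Sphk1, which encodes a sphingosine kinase, had 1642 in phosphate and 280 in control (5.87-fold). Socs3, an inhibitor of cytokine signalling, was 5.13-fold higher, and Sgk1, a serum- and glucocorticoid-regulated kinase gene, 4.49-fold higher. Because the distance uses the signals themselves, it depends on probe brightness as well as on the ratio, and a gene with the same ratio on a dimmer or brighter probe set is not among them.

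Other genes of the pathway were read from 8 lists, some of which share genes, with 88 different genes besides the 9. Of these, 66 were measured, 17 were below the floor on both arrays and 5 had no probe set for that gene alone and were not analysed here. At least 2-fold higher were 3 genes (4.55%, where the share of all measured genes was 2.27%), and 2 were at least 2-fold lower (3.03%, where it was 2.92%). The median over the 66 was 0.09.

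Of 13 other ligand genes listed, 8 were measured and none reached 2-fold. Bmp2, a bone-inducing ligand that can bind the activin type II receptors, read 1271 in phosphate and 692 in control (1.84-fold). Bmp6, which signals through Acvr1, read 53.6 in phosphate and 32.5 in control, close to the floor. Bmp4 read 785 in phosphate and 858 in control, and Bmp7 had a log2 ratio of −0.09. Inha, the alpha subunit gene that turns activin subunits into inhibins, lay at the floor with 22.8 in phosphate and 21.3 in control. Inhbc, Gdf11 and Gdf5 exceeded the floor in phosphate only, with signals no higher than 24.7, and Inhbe, Nodal and Gdf3 lay below it on both arrays.

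The other receptors of the family had a median log2 ratio of −0.30 over 6 measured genes, and none reached 2-fold. That median was −0.08 with the median over probe sets and 0.0035 with the least moved probe set. With the poly-A spikes set equal it was −0.76, beside −0.51 over all measured genes. Bmpr1a, a type I BMP receptor gene, read 1208 in phosphate and 1721 in control (log2 ratio −0.51, other probe sets −0.68 to 0.19). Acvrl1, the type I receptor gene ALK1 of endothelial BMP signalling, read 29.0 in phosphate and 53.3 in control, while its dimmer probe set gave 0.38. Tgfbr1 and Bmpr2 had log2 ratios of 0.14 and 0.09, and Tgfbr2 and Amhr2 each had −0.30. A dimmer Tgfbr2 probe set pointed the other way at 0.57, with 48.4 in phosphate and 32.5 in control. Acvr1c, which encodes the activin receptor ALK7, and Bmpr1b were below the floor on both arrays.

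Among co-receptors and secreted or membrane antagonists, 1 of 11 measured genes was at least 2-fold higher. Grem1, which encodes the BMP antagonist gremlin, read 239 in phosphate and 89.3 in control, which is 2.67-fold. Tgfbr3, the betaglycan co-receptor through which inhibin blocks activin receptors, read 758 in phosphate and 562 in control (1.35-fold). Bambi, a pseudoreceptor that dampens these signals, was level at 3000 in phosphate and 3109 in control. Lefty1, an antagonist of Nodal, was the lowest of the list at −0.55. The list's median was 0.11.

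Follistatin-domain relatives and the convertases that cleave activin precursors differed little. None of 9 measured relatives reached 2-fold, and their median was −0.02. Sparc (osteonectin), an abundant bone matrix protein, read 21992 in phosphate and 17412 in control. Spock2 was highest at 0.64, as a bound from a control signal below the floor, and Agrn lowest at −0.25. Of the proprotein convertases, Furin read 325 in phosphate and 342 in control, and the 4 genes lay between −0.23 (Pcsk6) and 0.34 (Pcsk7).

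Genes of SMAD proteins and their regulators had a median of 0.30 over 17 measured genes, beside −0.06 over all measured genes. These became −0.16 beside −0.51 with the poly-A spikes set equal, and 0.09 beside −0.03 with the least moved probe set. The receptor-activated SMAD genes of the activin branch gave 1303 in phosphate and 928 in control for Smad3 (log2 ratio 0.49), and 412 in phosphate and 400 in control for Smad2 (0.05), whose dimmer probe set gave −1.27. Smad4 had a ratio of 0.07, Smad1 of 0.33 and Smad5 of −0.02, and Smad9 was below the floor. The dimmer probe sets of Smad5 gave 0.36 and 0.73, and those of Smad4 0.05 and 0.35. The inhibitory SMAD genes differed in sign, with Smad7 at 253 in phosphate and 156 in control (0.70, or −0.04 on its dimmer probe set) and Smad6 at 629 in phosphate and 958 in control (−0.61). Tgif1, which encodes a repressor that binds SMAD proteins, was the 1 gene of the list past 2-fold, at 501 in phosphate and 163 in control (3.07-fold). Smurf1, a ubiquitin ligase gene of the pathway, was lowest at −0.93.

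Genes known as targets of SMAD2 and SMAD3 had a median of 0.34 over 10 measured genes. It was 0.17 with the least moved probe set, beside −0.03 over all measured genes. With the poly-A spikes set equal it was −0.12, beside −0.51 over all measured genes. Smad7, Skil and Pmepa1 also belong to the list of SMAD genes and regulators, so the medians of both lists are not separate observations. Past 2-fold was 1 of the 10 genes, the AP-1 gene Junb, at 475 in phosphate and 82.0 in control (5.79-fold). Junb is also an immediate early gene of other pathways. Pmepa1, a feedback inhibitor of SMAD signalling, read 2002 in phosphate and 1157 in control, and its 3 probe sets gave log2 ratios of 0.41 to 0.81. Skil, which encodes the SMAD corepressor SnoN, read 1995 in phosphate and 1283 in control (0.64, or 1.12 on a dimmer probe set). Lefty1 was the lowest of the list, and Ccn2, Ltbp2 and Bambi lay between −0.05 and 0.17.

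Targets of the BMP branch had a median of −0.12 over 10 measured genes. It became 0.03 without a floor or with the lower floor (the 35th percentile of all signals), over a larger set of genes. Both settings let in Smad9 (13.6 in phosphate, 1.27 in control) and Nog (16.6 in phosphate, 7.92 in control). With the lower floor these passed through the phosphate array alone, so their ratios could only be positive. With the poly-A spikes set equal the median of the BMP targets was −0.59, beside −0.51 over all measured genes. Grem1 was the 1 gene at least 2-fold higher, and 2 were at least 2-fold lower. Hey1, a transcription factor gene, read 104 in phosphate and 224 in control (log2 ratio −1.11). Atoh8, also a transcription factor gene, read 25.9 in phosphate and 68.9 in control (−1.41), close to the floor. The Id genes, classical direct targets, were spread from −0.76 for Id4, whose 3 probe sets lay between −0.83 and −0.74, to 0.40 for Id3, with Id1 at 0.11 and Id2 at −0.20.

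**Figure D4:**
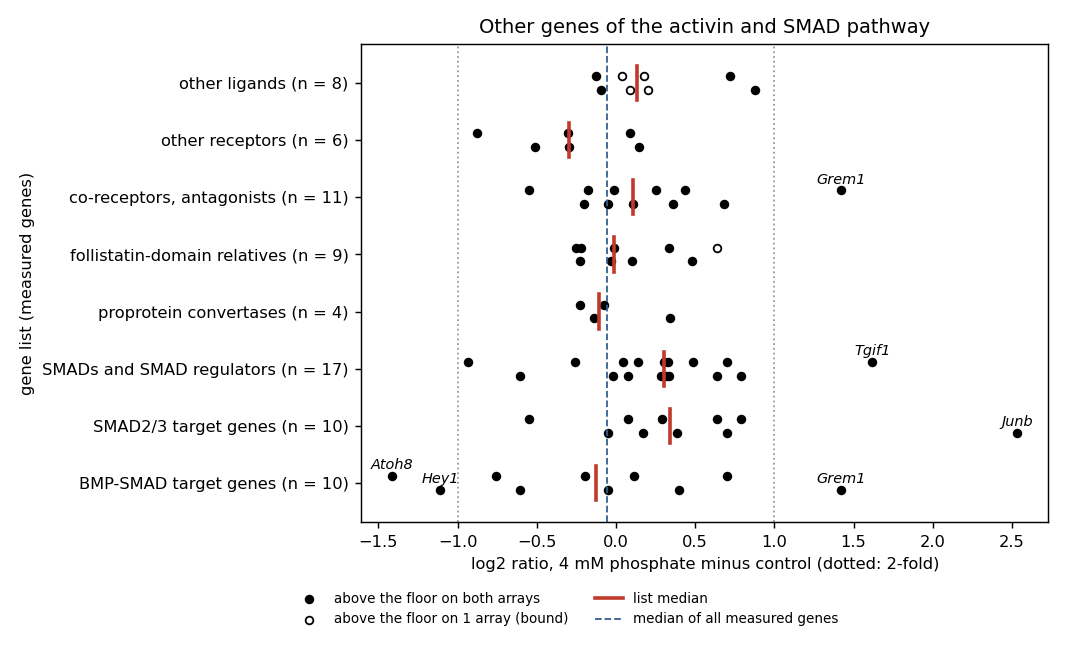
Log2 ratios (4 mM phosphate minus control) of the measured genes of 8 pathway lists, 1 point per gene from its brightest probe set, with list medians in red, the median of all measured genes as a dashed line and genes past 2-fold named. Grem1, Tgif1 and Junb lie above 2-fold higher, and Atoh8 and Hey1 below 2-fold lower.

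The cultures held transcripts of more than osteoblasts. Of 11 osteoblast markers, 3 had no probe set naming only that gene. All 8 measured osteoblast markers were above the floor on both arrays, with a summed signal of 92501 in phosphate and 73889 in control and a median log2 ratio of 0.16. The osteocyte matrix gene Dmp1 was the 1 marker past 2-fold, at 15708 in phosphate and 5505 in control. Most of the difference between the summed osteoblast signals came from Dmp1, while Sp7, Pth1r and Alpl had log2 ratios of −0.39, −0.24 and −0.19. All 12 macrophage and osteoclast markers were measured too, with a summed signal of 17848 in phosphate and 19698 in control. In log2 ratio 11 of 12 were below 0 (median −0.45). Of all measured genes 44.1% were above 0, and their median was −0.06. Most of the summed signal came from 2 nearly level genes, Lyz2 (7745 in phosphate, 7895 in control) and Ctsk (4376 in phosphate, 4097 in control). The macrophage receptor gene Csf1r read 1043 in phosphate and 1539 in control, and Adgre1 343 in phosphate and 503 in control. Cartilage markers were present and level, with Col2a1 at 4364 in phosphate and 4809 in control and a list median of 0.04. Of 5 adipocyte markers 2 were measured (median −0.29), 2 had no probe set naming only that gene and 1 was below the floor. Of 6 skeletal muscle markers 3 were measured and 3 were below the floor. Among those measured, Acta1 read 21.5 in phosphate and 55.9 in control. All 6 endothelial markers were below the floor on both arrays. In bulk RNA fewer cells of a type and less RNA per cell cannot be told apart. The part of macrophages or of any other cell type in the Inhba signal was not tested.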

How the data were processed

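The authors deposited 1 table of linear intensity values for 45101 probe sets on 2 Affymetrix mouse arrays, made with MAS5 in GCOS 1.4, per the submitters' processing notes. The trimmed mean (2% off each end) of the deposited values was 200.0 on both arrays. Without the 64 manufacturer's controls, 45037 probe sets remained. Of these, 51.0% on the phosphate array and 49.0% on the control array exceeded the floor of 21.5. The number of arrays limits the precision.

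Genes came from the platform annotation, for the 34945 probe sets naming 1 gene. A further 932 named several genes and 9160 none. Entrez identifiers were looked up in the RefSeq table of GRCm38.p6, and 0 symbols changed. Signals under the floor were raised to it, log2 ratios were taken as phosphate minus control, and each gene was read from the measured probe set whose deposited log2 signals had the highest mean. Technical SD was pooled over probe sets of the same gene in 3 ranges of the dimmer signal (up to 100, 100 to 400, and above). With 1 array per group no test was run. The calculations were tested on simulated data. The genes, lists and settings were chosen with earlier results of these data known. All 9 genes are named, and of each pathway list its members past 2-fold, or its highest and lowest, and the measured SMADs, receptors and ligands; further list members and cell type markers are given for what they do and were picked after their values were seen. Python 3.11.15, pandas 2.3.3, numpy 2.4.6 and statsmodels 0.14.6 were used. Of 11 alternatives, 10 were planned and 1, the choice of the brightest probe set after flooring, was added after seeing the data. They were no floor, 3 other floors, a pseudocount, quantile and loess normalization, poly-A spikes set equal, and other choices of probe set.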

Additional observations from a re-analysis of the deposited data

How the results depend on the processing

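Inhba was at least 2-fold higher under all 11 alternatives, between 2.55 (poly-A spikes set equal) and 3.04 in log2 ratio. The floors and the choices of probe set could not change its value. Both Inhba signals exceeded every floor, and only 1 Inhba probe set was measured. Only the pseudocount, the normalizations and the spike scale could move it. No member was 2-fold lower under any of the 11 alternatives. Fst, Acvr1, Acvr1b, Fstl1 and Fstl3 kept their sign under all 11, Inhbb under 10, Acvr2a under 10 (0.15 with the least moved probe set) and Acvr2b under 6 of the 9 that gave it a value. The floors left the ratios of Inhbb, Fst, Fstl1, Acvr1, Acvr1b and Acvr2a unchanged, so they add nothing to these counts. Acvr1b and Fstl3 had 1 measured probe set each, so the choices of probe set add nothing for them. Relative to the median of all genes, Fstl1 stood at 0.05, at −0.09 with quantile and at −0.06 with loess normalization, so its sign was not kept there. Choosing the brightest probe set after the floor was set took Acvr2b to 1.13, so that 2 members were 2-fold higher; that choice was added after seeing the data. The members' median was 0.49 with it and with the median over probe sets. With the poly-A spikes set equal the members' median was −0.34, beside −0.51 over all measured genes.

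Counts over all genes moved with the floor and the scaling. Higher and lower genes numbered 2126 and 1841 without a floor, 559 and 576 with a floor at the pooled 35th percentile, 183 and 164 at the 65th, 156 and 119 at a signal of 100, and 129 and 1562 with the spikes set equal, against 279 and 359. With a pseudocount, 172 were lower. Of the pathway genes, 9 were higher without a floor and 5 with the lower floor, against 3; lower were 1 with either higher floor, 0 with the pseudocount and 7 with the spikes set equal, against 2. The cause of these shifts was not tested beyond the settings themselves. No paired analysis was possible because each condition has 1 array. Signals near the floor limit what can be said of Acvr2b.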
